A study of Mus musculus with 4 samples.

Results

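Cytochrome P450 genes of families 1, 2 and 3 were described across liver and spleen of mice injected with lipopolysaccharide. The members were all gene probes whose name in the array files began with Cyp1, Cyp2 or Cyp3 followed by a letter, which gave 43 genes and 66 probes of 27962 gene names and 41174 probes. Of these, 21 genes had more than 1 probe. Probes are called by their Agilent identifiers.

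Male mice of the C57BL/6J strain, aged 7 weeks, had been fed for 4 weeks on a purified diet with 1.2% of a nucleoprotein product, which held 0.5% nucleic acids, or on the purified diet alone, which held 0.03% and is called control here. Every mouse, control mice included, then received 10 mg/kg of lipopolysaccharide, which comes from the outer membrane of bacteria and provokes inflammation, and liver and spleen were taken 6 h later, so the levels below are all levels after the injection. RNA was pooled by diet and organ, and each organ was measured on 2 two-colour Agilent arrays, with the nucleoprotein pool in Cy5 (red) on replicate 1 and in Cy3 (green) on replicate 2. The labels number the pooled samples 1 and 2 and do not say whether these were separate pools. The 2 arrays were taken as a dye swap of 1 pool per diet, so no test was run, no p-value is given, and an SD covers array and labelling error together with any dye effect of the probe. In such bulk samples fewer cells of a type and less RNA per cell cannot be told apart.

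Enzymes of families 1 to 3 are haem proteins of the endoplasmic reticulum that oxidise drugs, pollutants, steroids and fatty acids, using electrons from cytochrome P450 reductase. The liver is their main organ, and their genes are switched on there by nuclear receptors such as the constitutive androstane receptor (CAR) and the pregnane X receptor (PXR), by the aryl hydrocarbon receptor, and by liver factors such as HNF4 alpha. Several mouse members differ between the sexes, and inflammation is known to lower many of them.

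Many of these genes are close paralogs, so a few probes are shown to let their likeness be judged (5′ to 3′, positions on build mm7 from the array files). The probes of Cyp2c40 (A_52_P200121, minus strand, joining 2 exons between chr19:39680672-39696310) and Cyp2c54 (A_52_P154580, minus strand, joining exons between chr19:39941403-39963984) were the most alike of all 2145 pairs of member probes that were compared over at least 40 bases, with 38 of 46 bases matching. Capitals mark their longest shared run.
Cyp2c40: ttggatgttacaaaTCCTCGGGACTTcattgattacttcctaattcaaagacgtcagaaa
Cyp2c54: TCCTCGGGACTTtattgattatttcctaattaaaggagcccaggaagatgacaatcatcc

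Probes of Cyp2j11 (A_51_P423085, chr4:95690233-95690292, minus strand) and Cyp2j13 (A_51_P476481, within chr4:95438221-95449204, minus strand, joining 2 exons) overlapped by 30 bases with 28 matches, and capitals mark the run of 18 they share. They are shown because their liver to spleen differences were unlike, as given below.
Cyp2j11: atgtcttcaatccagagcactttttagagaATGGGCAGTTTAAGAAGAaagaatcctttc
Cyp2j13: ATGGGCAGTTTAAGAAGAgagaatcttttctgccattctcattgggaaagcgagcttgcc

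Cyp2e1 (A_51_P283456, chr7:137190949-137191008, plus strand) and Cyp2c29 (A_51_P103706, chr19:39222926-39222985, plus strand), which both gave dye-dependent ratios in liver, had probes that aligned to each other over 52 bases. Capitals mark the 37 bases that match.
Cyp2e1: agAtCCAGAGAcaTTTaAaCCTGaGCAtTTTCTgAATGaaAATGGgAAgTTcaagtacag
Cyp2c29: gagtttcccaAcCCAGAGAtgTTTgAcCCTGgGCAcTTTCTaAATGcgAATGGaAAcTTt

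At overlaps of 20 bases or more with at least 90% identity, 4 pairs of member probes were found in all. These were the Cyp2j pair, the 2 overlapping probes of Cyp2d9, and 2 pairs that join Cyp2a4 probe A_51_P377154 with the Cyp2a5 probes, at 35 of 38 and 20 of 20 bases. The files place that Cyp2a4 probe and both Cyp2a5 probes at overlapping positions on chromosome 7 (23212199 to 23212258, 23212221 to 23212279 and 23212159 to 23212218), so values of these 2 genes cannot be treated as separate.

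A probe was called measurable in an organ when 1 diet or both gave a signal well above background each time, on replicate 1 and on replicate 2. This held for 55 of the 66 member probes in liver (41 of 43 genes) and for 30 in spleen (25 genes), with 28 measurable in both organs, 27 in liver only, 2 in spleen only and 9 in neither. Levels are log2 intensities after normalization, on which a probe at background stands near 6, and they were compared between organs for the same probe only. The organ difference is the mean ± SD of 4 liver minus spleen differences, matched by diet and dye. Labels and markers of the organs matched: the summed level of 24 hepatocyte markers was between 19.57 and 19.99 in the 4 liver channels and between 11.53 and 13.16 in the 4 spleen channels, and that of 8 B cell markers was between 9.69 and 9.75 in liver and between 15.15 and 15.26 in spleen.

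**Figure D1:**
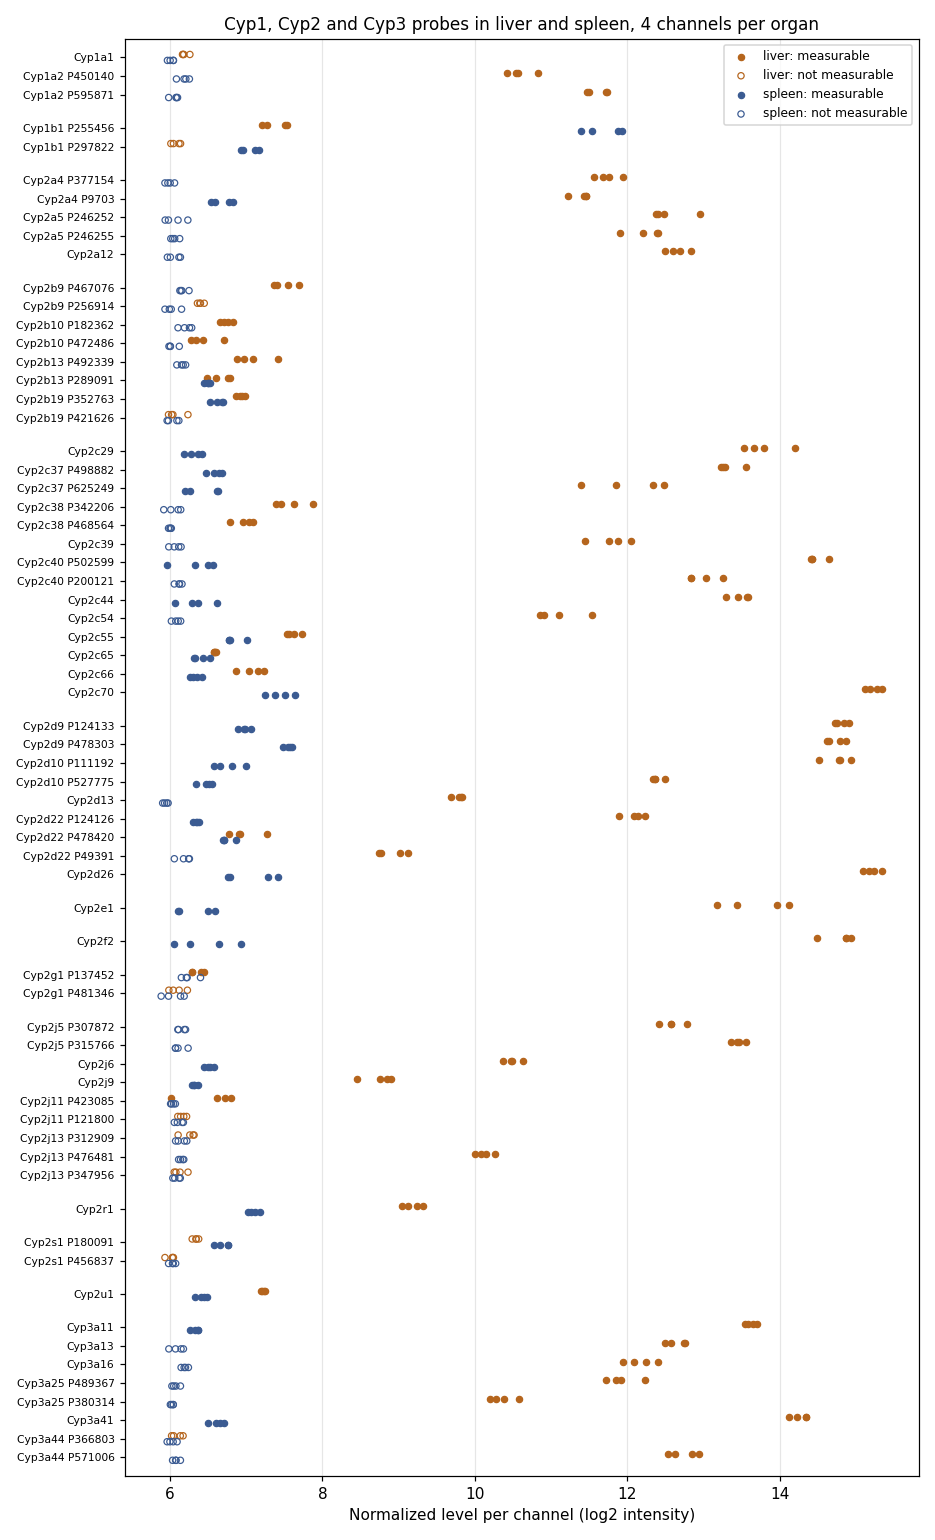
Normalized level (log2 intensity, horizontal axis) of each of the 66 member probes, with 4 liver channels in brown and 4 spleen channels in blue, and open points where the probe was not measurable. Most probes of Cyp2a, Cyp2c, Cyp2d and Cyp3a lie far to the right in liver, the Cyp2b probes lie near the background of about 6 in both organs, and Cyp1b1 A_51_P255456 alone stands far higher in spleen.

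Liver was brighter for most of the family. Of the 57 probes measurable in either organ, 41 were brighter in liver by more than 2-fold in all 4 matched differences and 1 was brighter in spleen, against 11.6% and 14.1% of all 28105 probes measurable in either organ. Of the 41, 18 were not well above background in any spleen channel and have only a lower bound, from 2.89-fold to 117-fold. The median organ difference was 5.55 log2 units for the members, 5.51 with such probes at their bound, and -0.09 for all probes. Among the 17 members well above background in every channel of both organs, the widest differences were those of Cyp2d26 at 8.15 ± 0.33, Cyp2d10 A_51_P111192 at 8.00 ± 0.23 and Cyp2d9 A_51_P124133 at 7.83 ± 0.13. Cyp2f2, which oxidises naphthalene, differed by 8.32 ± 0.40 and Cyp2c40 A_51_P502599 by 8.14 ± 0.22, with 3 and 2 of 4 spleen channels well above background, so their spleen values lie partly at background.

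In family 1 the members were split between the organs. Cyp1a2, the constitutive liver member, had levels of 11.73 and 11.47 in the nucleoprotein channels and 11.49 and 11.74 in the control channels of the liver arrays (A_52_P595871), and was not well above background in any spleen channel. It was at least 45.4-fold brighter in liver by that probe and at least 21.2-fold by A_51_P450140. Cyp1a1, the inducible member that rises with aryl hydrocarbon receptor activity, was not well above background in any channel of either organ.

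Cyp1b1, an extrahepatic member that oxidises oestrogens, was the exception. With A_51_P255456 its spleen levels were 11.92 and 11.39 in the nucleoprotein channels and 11.54 and 11.88 in the control channels, and its liver levels 7.51 and 7.21 against 7.28 and 7.54. All spleen values lay above all liver values, and spleen was 19.7-fold brighter (liver minus spleen, -4.30 ± 0.10). The other Cyp1b1 probe, A_52_P297822, was well above background in all spleen channels and in no liver channel, so spleen was at least 1.89-fold brighter, and it was not called.

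All 5 Cyp2a probes were brighter in liver, and 4 of them were not well above background in any spleen channel, with bounds of at least 50.7-fold to 94.0-fold. Cyp2a5, a coumarin hydroxylase, was at least 87.4-fold brighter by A_52_P246252, and Cyp2a12 at least 94.0-fold. The spleen held a measurable signal for A_52_P9703 of Cyp2a4, a testosterone hydroxylase more abundant in females, with an organ difference of 4.71 ± 0.15.

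Cyp2b genes stood apart from the other large subfamilies. They are the classic targets of CAR, with Cyp2b10 induced by phenobarbital and Cyp2b9 and Cyp2b13 higher in females. Of 6 measurable Cyp2b probes, only A_51_P467076 of Cyp2b9 was called brighter in liver, at 1.34 ± 0.11, with 1 of 4 spleen channels well above background. Only 2 of the 6 were well above background in every channel of both organs, Cyp2b13 A_52_P289091 at 0.17 ± 0.16 and Cyp2b19 A_51_P352763, known from skin, at 0.30 ± 0.04. Liver levels of Cyp2b10 A_51_P182362 were 6.70 and 6.76 in the nucleoprotein channels and 6.66 and 6.82 in the control channels, close to background.

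Among Cyp2c genes, enzymes of arachidonic acid and drug oxidation, 10 of 14 probes were called brighter in liver. Not called were 4 probes. The differences of Cyp2c55, Cyp2c65 and Cyp2c66 were 0.78 ± 0.17, 0.18 ± 0.08 and 0.74 ± 0.14, all with levels under 8 in both organs. Neither Cyp2c38 probe was well above background in any spleen channel, and liver was at least 2.89-fold brighter by A_51_P342206, which was called, and at least 1.87-fold by A_52_P468564, which was not. Bounds also held for Cyp2c39 (at least 50.9-fold), Cyp2c54 (at least 32.0-fold) and Cyp2c40 A_52_P200121 (at least 117-fold). Cyp2c37 A_51_P498882, well above background in all spleen channels, differed by 6.74 ± 0.19. Cyp2c70, which forms muricholic bile acids in mice, was 221-fold brighter in liver (7.79 ± 0.15), and it was well above background in all 4 spleen channels too.

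In Cyp2d, 8 of 9 probes were brighter in liver. Cyp2d9, a testosterone hydroxylase more abundant in males, gave 7.83 ± 0.13 and 7.18 ± 0.15 with its 2 overlapping probes. Cyp2d22 depended on the probe, with 5.75 ± 0.13 for A_51_P124126 (3 of 4 spleen channels well above background), 2.73 ± 0.19 for A_52_P49391 (2 of 4) and 0.22 ± 0.27 for A_52_P478420. Cyp2e1, which oxidises ethanol and paracetamol, stood at 7.35 ± 0.50. It was well above background in 2 of 4 spleen channels, both of them nucleoprotein channels.

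Cyp2j, Cyp2r, Cyp2u, Cyp2g and Cyp2s members followed. Cyp2r1, a vitamin D hydroxylase, was brighter in liver by 2.08 ± 0.06, the brain-associated Cyp2j9 by 2.41 ± 0.23 (3 of 4 spleen channels well above background) and Cyp2j6 by 3.98 ± 0.14. Cyp2u1, a fatty acid hydroxylase, differed by 0.80 ± 0.07 and the olfactory Cyp2g1 by 0.11 ± 0.06, neither called. Cyp2g1 was at background in 2 of 4 spleen channels. Cyp2s1 A_51_P180091 differed by -0.35 ± 0.06, with 2 of 4 liver channels well above background, and was not called either. Of the pair of similar Cyp2j probes shown above, that of Cyp2j13 was at least 15.7-fold brighter in liver and was called, and that of Cyp2j11 was at least 1.38-fold brighter and was not called.

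Cyp3a genes, the main drug-oxidising P450s and targets of PXR, were brighter in liver with all 7 measurable probes, of which 5 were not well above background in any spleen channel, with bounds of at least 19.6-fold to 99.7-fold. Cyp3a11 had liver levels of 13.70 and 13.54 in the nucleoprotein channels and 13.64 and 13.58 in the control channels, and was 156-fold brighter than in spleen, where 3 of 4 channels were well above background. Cyp3a16, Cyp3a41 and Cyp3a44, which are known as female-biased in adult mice, were far above background in these livers of males, being at least 63.1-fold brighter than in spleen for Cyp3a16, at least 99.7-fold for Cyp3a44 A_52_P571006 and 200-fold for Cyp3a41, which was well above background in all spleen channels. The other Cyp3a44 probe, A_52_P366803, was not measurable in either organ, although the files place it and A_52_P571006 close together on chromosome 5 (144587558 to 144587617 and 144587795 to 144587854), next to the Cyp3a41 probe (144587472 to 144587531). Cyp3a genes are near-identical in places, and a probe can bind the RNA of a relative.

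Promoters of the members were read from RefSeq (build GRCm38.p6), where 37 of 43 genes matched, over 250 bases before to 50 after the start. The word CAAAGTCCA, a form of the HNF4 alpha motif, was searched on both strands and occurred in 6 of the 37 genes (Cyp2c40, Cyp2c65, Cyp2c70, Cyp3a11, Cyp3a16 and the gene listed as Cyp3a41a) and in 0.475% of all 32851 promoters. Of these 6 genes, 5 were called brighter in liver and 1, Cyp2c65, was not, where 27 of all 37 genes were called brighter in liver. The TATA box word TATAAA was found in 22 of the 37, against 13.6% of all promoters. The bases before the start are shown for the liver-bright Cyp3a11 (chr5:145879855-145880104, minus strand), Cyp2c70 (chr19:40187287-40187536, minus strand) and Cyp2c40 (chr19:39812815-39813064, minus strand), with capitals on CAAAGTCCA and, in Cyp3a11 and Cyp2c70, on TATAAA or its reverse complement. The TATAAA of Cyp2c40 begins 40 bases after the start, outside the stretch shown.
Cyp3a11: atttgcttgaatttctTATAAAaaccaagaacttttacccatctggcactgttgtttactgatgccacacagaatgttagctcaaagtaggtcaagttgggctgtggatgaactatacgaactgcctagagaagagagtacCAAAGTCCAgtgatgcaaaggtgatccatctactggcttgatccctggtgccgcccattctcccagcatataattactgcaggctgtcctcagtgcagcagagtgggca
Cyp2c70: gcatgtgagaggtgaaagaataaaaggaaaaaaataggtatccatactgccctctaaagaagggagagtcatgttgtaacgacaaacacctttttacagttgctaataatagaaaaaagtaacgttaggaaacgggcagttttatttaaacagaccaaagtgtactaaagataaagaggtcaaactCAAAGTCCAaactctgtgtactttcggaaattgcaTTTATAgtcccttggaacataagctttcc
Cyp2c40: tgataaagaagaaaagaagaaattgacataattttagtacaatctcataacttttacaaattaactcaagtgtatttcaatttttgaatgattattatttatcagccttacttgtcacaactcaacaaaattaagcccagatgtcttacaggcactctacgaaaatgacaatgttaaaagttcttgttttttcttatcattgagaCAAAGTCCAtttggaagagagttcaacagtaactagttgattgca

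The HNF4 alpha word began 109 bases before the start in Cyp3a11, 64 in Cyp2c70 and 45 in Cyp2c40, and the TATA box word 234 bases before it in Cyp3a11 and 29 in Cyp2c70. Another 6 words were searched in the same windows on both strands. CAAAGTTCA, another form of the HNF4 alpha motif, was in 0 of the 37 genes (0.39% of all promoters). GTTAAT, part of the HNF1 motif, was in 4 (7.1%), and the full palindromic HNF1 motif, which contains it, in 0 (0.00913%). AGGTCA, bound by nuclear receptors, was in 13 (16.3%), GCGTG, the core bound by the aryl hydrocarbon receptor, in 6 including Cyp1a1 and Cyp1b1 (32.4%), and TTATGTAA, bound by the factors Dbp, Tef and Hlf, in 0 (0.938%). The words describe these windows only.

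The diet comparison in liver asked whether the members differed between nucleoprotein and control livers. Each ratio is the log2 of the nucleoprotein signal over the control signal; means carry the SD of both arrays, and a probe was called when it passed 1.5-fold (0.58 log2 units) in the same direction on both. None of the 55 measurable member probes was called, 0 higher and 0 lower, against 0.00843% higher and 0.24% lower among all 23728 measurable probes. The members' median ratio was 0.0015, with medians of 0.12 on the array with nucleoprotein in Cy5 and -0.09 on the array with nucleoprotein in Cy3, and the median of all probes was 0.013. Mean ratios ran from -0.33 (Cyp2b13 A_51_P492339) to 0.29 (Cyp3a25 A_51_P489367).

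The dye term is the difference between the 2 arrays divided by 2. It holds any dye effect together with array and labelling error and any difference between pools, which cannot be told apart here. For most members it was larger in size than the diet mean, as for most of all measurable probes. This held for 39 of 55 member probes (70.9%) and for 66.1% of all measurable probes. A ratio said below to change sign with the dye is one whose sign differed between the 2 arrays. In 32 member probes the Cy5 channel was higher on both arrays whichever diet it held, in 7 the Cy3 channel was, and 16 (29.1%) kept 1 diet direction on both arrays, 8 upward and 8 downward, against 33.9% of all measurable probes. The split by dye was not counted over all probes, whose median dye term was 0.02 towards Cy5, against 0.14 in the members. Across the 55 probes the 2 liver arrays had a Pearson correlation of -0.29, and across all measurable probes of 0.03. Probes on 1 array share its labelling, so these are descriptions.

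**Figure D2:**
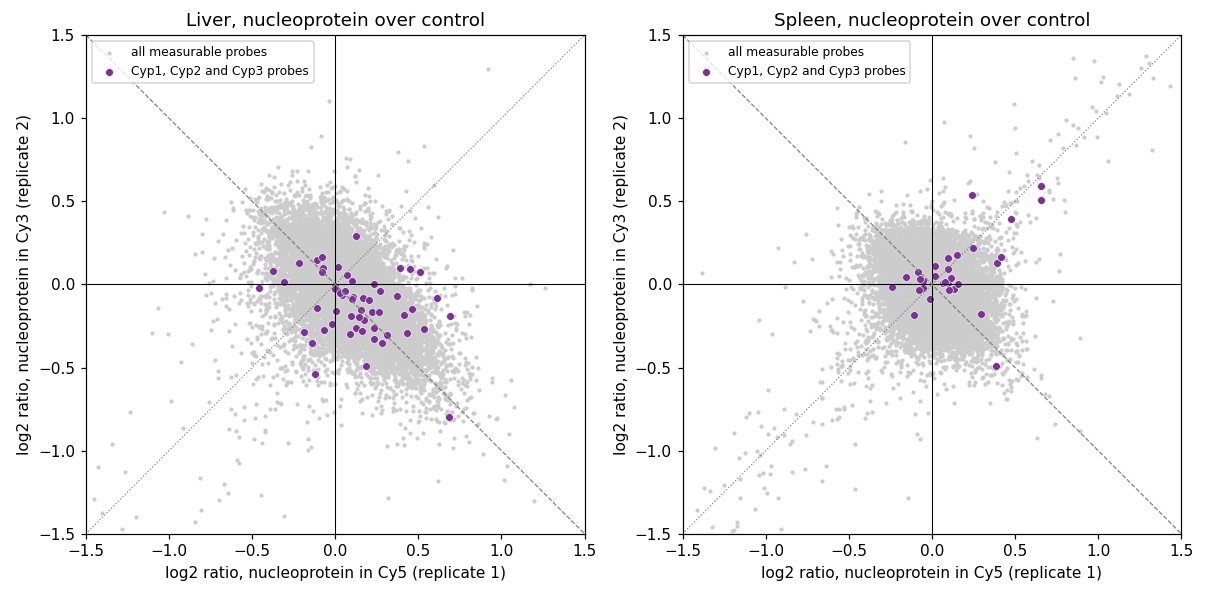
Log2 ratio of nucleoprotein over control on the array with nucleoprotein in Cy5 (horizontal) and in Cy3 (vertical) for liver, left, and spleen, right, with all measurable probes in grey and member probes in purple; points beyond 1.5 log2 units fall outside the axes. Ratios of the same direction on both arrays lie towards the dotted diagonal, and those that reverse between the arrays towards the dashed one. The liver members spread along the dashed line, with Cyp2e1 at 0.69 and -0.80, while the highest spleen members lie near the dotted line.

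Cyp2e1 had the widest gap between the 2 liver arrays. Its nucleoprotein levels in liver were 14.12 in Cy5 and 13.17 in Cy3, and its control levels 13.44 in Cy3 and 13.97 in Cy5. The Cy5 value was the higher one on each array, and the ratios of 0.69 and -0.80 left a mean of -0.06 ± 1.05. It was the single member past 1.5-fold in opposite directions, as were 0.4% of all measurable probes, and all 95 of those were higher in Cy5.

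**Figure D3:**
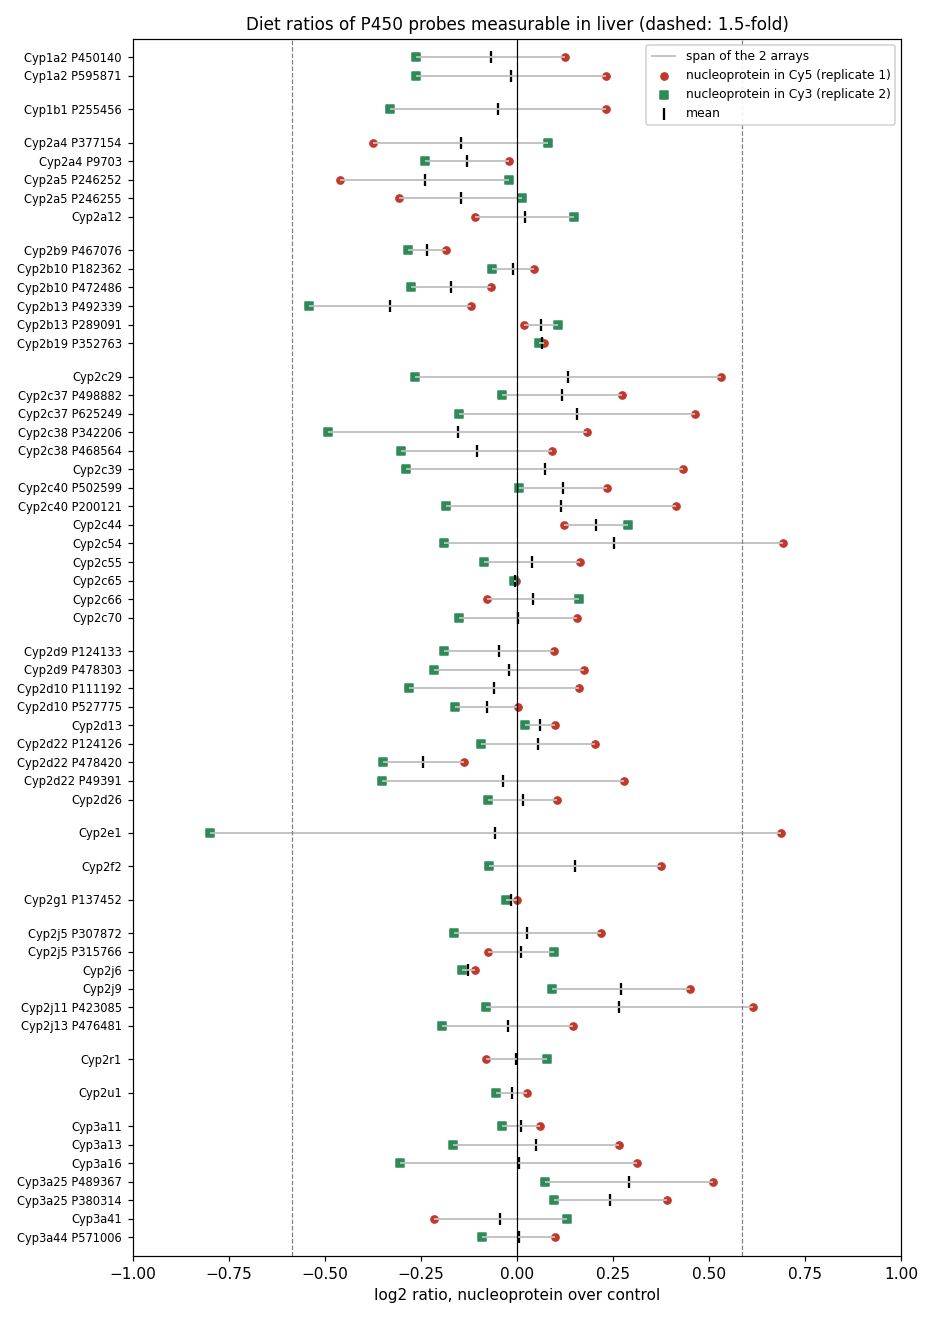
Log2 ratio of nucleoprotein over control in liver for the 55 measurable member probes, as circles for the array with nucleoprotein in Cy5, squares for the array with it in Cy3 and bars for the mean, with dashed lines at 1.5-fold. No probe has both points beyond the same dashed line, and Cyp2e1 has its points beyond opposite ones.

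By subfamily, the family 1 probes all changed sign with the dye, with Cyp1a2 at -0.02 ± 0.35 (A_52_P595871) and -0.07 ± 0.27, and Cyp1b1 at -0.05 ± 0.40. The Cyp2a median was -0.15 over 5 probes, with -0.31 and 0.01 on the 2 arrays, and the Cyp2b median was -0.09 over 6, with -0.02 and -0.17. With Feature Extraction's deposited log ratios these medians were -0.16 for Cyp2a and -0.41 for Cyp2b, so their order depended on the processing. Cyp2a5 A_52_P246252 gave -0.46 and -0.02 and Cyp2a4 A_52_P9703 gave -0.02 and -0.24, so each was below 0 on both arrays. The Cyp2a median was above 0, at 0.19, with median centring in place of loess, a setting that left Cyp2b at -0.12 and put the median of all probes at 0.14.

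In Cyp2b, 3 probes were below 0 on both arrays. Cyp2b13 A_51_P492339 gave -0.12 and -0.54, Cyp2b9 A_51_P467076 gave -0.19 and -0.28, and Cyp2b10 A_52_P472486 gave -0.07 and -0.28. The other probes of Cyp2b13 and Cyp2b10 stood at 0.06 ± 0.06 and -0.01 ± 0.08. Nucleoprotein levels of Cyp2b13 A_51_P492339 were 6.98 and 6.87, against control levels of 7.09 and 7.41, and all 4 values were dim. Both nucleoprotein values lay below both control values, but these are 2 readings of what was taken as 1 pool per diet. The share of all probes separated in this way was not counted. In the log ratios deposited by Feature Extraction, which do not carry the added offset of 50, the same probe gave -0.59 and -1.61, Cyp2b10 A_52_P472486 -0.94 and -1.77, and Cyp2d22 A_52_P478420 -0.78 and -1.13. These 3 passed the 1.5-fold bound there, as did 0.556% of all measurable probes.

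In Cyp2c the median was 0.09 over 14 probes, and 10 of them were higher in Cy5 on both arrays. Cyp2c44, listed as Cyp2c23 in RefSeq, gave 0.12 and 0.29 and Cyp2c40 A_51_P502599 gave 0.23 and 0.004. Cyp2c54 had the largest mean, 0.25 ± 0.62, from 0.69 and -0.19. The CAR targets Cyp2c29 and Cyp2c37 gave 0.13 ± 0.56, and 0.12 ± 0.22 and 0.16 ± 0.43, each changing sign with the dye.

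The Cyp2d median was -0.04 over 9 probes. Cyp2d22 A_52_P478420 gave -0.14 and -0.35, while its other probes, at 0.05 ± 0.21 and -0.04 ± 0.45, changed sign with the dye. Cyp2d13 was above 0 on both arrays, at 0.10 and 0.02. Cyp2d9, the male-biased member, stood at -0.05 ± 0.20 and -0.02 ± 0.27. Cyp2f2 gave 0.37 and -0.07.

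For Cyp2j, Cyp2j9 had nucleoprotein levels of 8.90 and 8.85 against control levels of 8.45 and 8.76, with ratios of 0.45 and 0.09. Both nucleoprotein values lay above both control values, by 8.85 against 8.76 at the closest, again as 2 readings of what was taken as 1 pool per diet. How many of all probes were separated in this way was not counted. Cyp2j6 gave -0.11 and -0.14, a mean of -0.13 ± 0.02. Cyp2j11 A_51_P423085 gave 0.61 and -0.08, the control level in Cy3 being 6.01 where the other 3 were between 6.62 and 6.80.

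Both Cyp3a25 probes were above 0 on both arrays, at 0.51 and 0.07 for A_51_P489367 and 0.39 and 0.10 for A_52_P380314. Nucleoprotein levels of A_51_P489367 were 12.23 and 11.92, against 11.72 and 11.85 in control. Cyp3a11 stood at 0.01 ± 0.07, Cyp3a13 at 0.05 ± 0.31 and Cyp3a16 at 0.004 ± 0.44. Of the 15 measurable probes of CAR and PXR targets, 0 were called and the median was 0.05, and of the 8 measurable female-biased probes 0 were called and the median was -0.09, with a range of -0.33 to 0.06.

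No partner gene of the P450s was called in liver, and 1 regulator was. Of 15 partner genes (the electron donors Por and Cyb5, haem synthesis and breakdown, and epoxide hydrolase), 0 were called in liver, with a median of 0.009. They ran from -0.29 for Cyb5r3, a cytochrome b5 reductase, to 0.22 for Cpox, an enzyme of haem synthesis. Of 26 measurable regulators 1 was lower and 0 higher, with a median of 0.003. The lower one was Dbp, a clock-controlled transcription factor of P450 genes, with ratios of -1.62 and -1.32. The highest of the list were Bcl6 and Nr1i3, which encodes CAR, both at 0.21. Of 23 measurable P450 genes outside families 1 to 3, 0 were called in liver, from -0.47 for Cyp26b1, a retinoic acid hydroxylase, to 0.32 for Cyp8b1, a bile acid synthesis enzyme.

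In spleen the diet comparison gave 1 call. Cyp2f2 was higher in nucleoprotein spleens, at 0.66 and 0.59, and 0 members were lower, among 30 measurable probes. Of all 26900 measurable probes 0.171% were higher and 0.204% lower, and 0.0186% passed the bound in opposite directions. Members' median was 0.05 (0.10 and 0.04 on the 2 arrays), against 0.0008 for all probes. Of the 30, 11 were measurable through the nucleoprotein channels only, a filter that favours ratios above 0, and 0 through the control channels only. Among the 19 well above background in both diets, the dye term exceeded the diet mean in 6 (31.6%), against 60.1% of all such probes, and 13 (68.4%) kept 1 diet direction on both arrays, 10 upward and 3 downward, against 39.9%. Their median was 0.05. The correlation of the 2 arrays was 0.51 across the 30 and 0.02 across all probes. The 30 include the 11 measurable through nucleoprotein only, whose filter favours ratios above 0 on both arrays. The 0.51 therefore cannot be read as agreement of the arrays on the diet.

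Nucleoprotein levels of Cyp2f2 were 6.93 and 6.65, against control levels of 6.27 and 6.05. Both nucleoprotein values, as 2 readings of what was taken as 1 pool, lay above both control values, and the control channel was well above background on 1 of 2 arrays. Such separation was not counted over all spleen probes. Cyp2d26 had nucleoprotein levels of 7.42 and 7.29 against 6.77 and 6.78 in control, all 4 well above background, and its ratios of 0.65 and 0.51 missed the bound on 1 array. Cyp2e1 levels were 6.59 and 6.49 in nucleoprotein and 6.11 and 6.10 in control, where it was not well above background on either array, so nucleoprotein was at least 1.34-fold higher (ratios 0.47 and 0.39). Cyp2c40 A_51_P502599 had the same pattern, with 6.56 and 6.50 against 6.32 and 5.96, or at least 1.31-fold higher.

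The offset of 50 added in background correction compresses ratios of such dim probes. Feature Extraction's deposited log ratios were 2.37 and 2.44 for Cyp2f2, 2.89 and 2.23 for Cyp2e1, 1.30 and 2.82 for Cyp2c40 A_51_P502599, 1.26 and 0.92 for Cyp2d26, 0.60 and 1.96 for Cyp2c44, and 0.97 and 0.96 for Cyp2c29. By those values these 6 probes were higher, as were 0.472% of all measurable probes, but 5 of the 6, all but Cyp2d26, were measurable through nucleoprotein only, and their ratios are over control signal that was at background on at least 1 array. The count of 1 called by the main ratios fell to 0 with median centring in place of loess. By the main ratios it was also 0 among the 19 probes well above background in both diets, which include Cyp2d26.

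**Figure D4:**
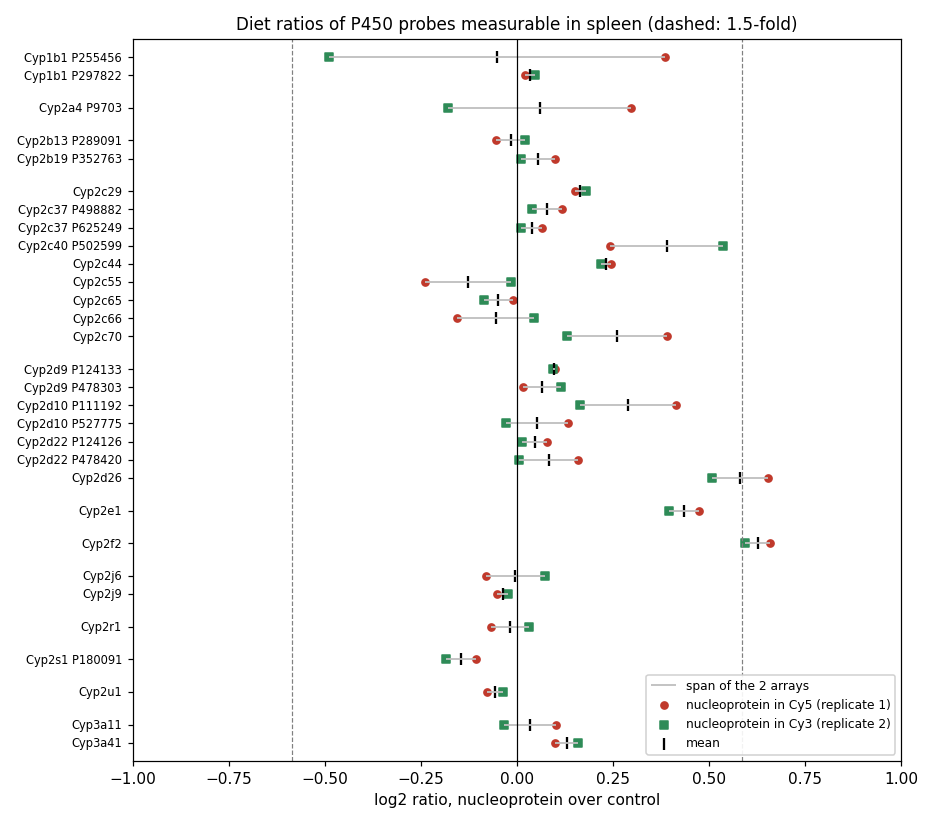
Log2 ratio of nucleoprotein over control in spleen for the 30 measurable member probes, with symbols and lines as for liver. Cyp2f2, at 0.66 and 0.59, has both points past the right dashed line, Cyp2d26 has 1 point past it, and Cyp1b1 A_51_P255456 has its points on opposite sides of 0 at 0.39 and -0.49.

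Other members with 1 direction on both spleen arrays moved less. Cyp2d10 A_51_P111192 gave 0.41 and 0.16 and Cyp2c70 0.39 and 0.13. Cyp3a41 gave 0.10 and 0.16, both Cyp2d9 probes lay above 0 at 0.10 ± 0.004 and 0.06 ± 0.07, and Cyp2b19 A_51_P352763 stood at 0.05 ± 0.06. Those below 0 included Cyp2s1 A_51_P180091 at -0.11 and -0.19, Cyp2c55 at -0.24 and -0.02, and Cyp2u1 at -0.08 and -0.04. Cyp1b1, the member brightest in spleen relative to liver, changed sign with the dye with A_51_P255456, at 0.39 and -0.49, and stood at 0.03 ± 0.02 with A_52_P297822.

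The spleen ratios were sorted by the organ in which a probe was brighter. Of 18 member probes at least 8-fold brighter in liver, 9 were measurable through nucleoprotein only, so the counts here are over probes well above background in both diets. Of the 9 such members at least 8-fold brighter in liver, 8 had a mean ratio above 0, with a median of 0.10, and of the other 10 members 3 did, with a median of -0.04. Among all probes so filtered, 52.5% of the 682 at least 8-fold brighter in liver were above 0 (median 0.005), and 49.2% of the others.

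Hepatocyte markers moved in the same spleen pools. Of the 22 measurable in spleen, 17 were called higher and all 22 lay above 0, with a median of 1.14 and a range of 0.06 to 2.21. Their summed level was 13.16 and 13.04 in nucleoprotein and 11.71 and 11.53 in control, and of 24 on the array 1 was not well above background in nucleoprotein and 4 in control. Fgg, a fibrinogen chain, was at 1.92 and 2.49, and Alb, serum albumin, at 2.11 and 1.77. In liver 0 of 24 of these markers were called, with a median of -0.03. Pancreatic acinar markers went the other way, with 18 of 22 lower in spleen at a median of -1.08 (summed level 13.91 and 13.76 in nucleoprotein against 15.07 and 15.01 in control) and 21 of 21 lower in liver at a median of -3.86 (12.94 and 12.89 against 17.12 and 17.17). The part of either in the members' ratios was not tested.

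**Figure D5:**
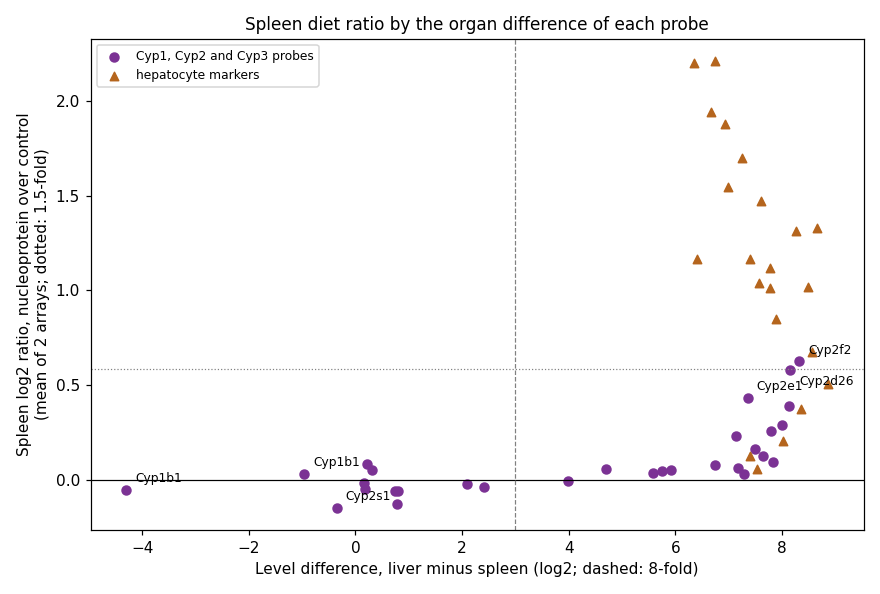
Spleen log2 ratio of nucleoprotein over control (vertical, mean of 2 arrays) against the level difference of the same probe between liver and spleen (horizontal), for member probes as purple circles and hepatocyte markers as brown triangles, with lines at 8-fold and 1.5-fold. Members right of the dashed line reach 0.63 for Cyp2f2, hepatocyte markers reach 2.21, and members left of it lie between -0.15 and 0.08. Of the 18 members right of it, 9 were measurable through nucleoprotein only.

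Markers of the spleen's own cells gave no call. Of 7 measurable B cell and 8 T cell markers 0 were called in spleen, with medians of -0.05 and -0.14, and of 6 macrophage markers 0, with a median of -0.07. Mean ratios were above 0 for 2 of the 7 B cell, 0 of the 8 T cell and 1 of the 6 macrophage markers. Of all measurable spleen probes 50.4% were above 0. Among 14 partner genes 0 were called, from -0.24 for the epoxide hydrolase Ephx1 to 0.05 for Ppox, an enzyme of haem synthesis. Of 17 regulators 0 were called, from -0.21 for Rxra, the shared partner of CAR and PXR, to 0.09 for Ahr, the aryl hydrocarbon receptor.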

How the data were processed

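Labelled RNA pools of liver and spleen were hybridised to 4 arrays, all of them on 1 slide. Per the file headers, the deposited files gave mean and background intensity per spot and channel, processed intensity, and the log10 ratio of red over green, from Agilent's Feature Extraction software; its version is 9.5.3.1 in the submitters' processing notes and 9.5.1.1 for the step in the headers. The authors' deposited series table was a score per spot of unstated scale; its size was the linear red over green ratio within 0.02 log2 units for 99.8% to 100% of spots, its column medians were -0.92, 0.92, -0.96 and 0.96, and the 2 negative columns, both of replicate 1, carried a minus sign of unstated purpose. It served as an alternative only.

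From the intensities, background was corrected by normexp (offset 50) and ratios were normalized by loess with limma 3.58.1 in R 4.3.3, control spots having weight 0. Between 189 and 354 outlier spots per array were left out, none of them a member, and 0 spots were saturated. The share of gene spots well above background was 55.2% to 66.8% per array in Cy3 and 66.5% to 72.8% in Cy5. Spots of a probe were averaged, and ratios turned to nucleoprotein over control by the dyes in the labels. Levels of single channels came after Aquantile scaling. Signal not well above background in a group is a bound: the bright mean was set against the higher of the probe's own and the lowest signal well above background (5.82 to 6.15). Levels across arrays are open to dye bias where dyes are unbalanced, and the number of arrays limits precision.

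No test was run. Pools were taken as the same on both arrays of an organ, which the labels do not say; a standard chow appears in the housing notes and a purified diet in the design, which was taken as right. The calls were tested on simulated data with 200 changed probes, of which 179 were called in the simulated liver comparison, and 0 of 12271 unchanged probes. Only spots over a set brightness were changed and counted, so the simulation does not cover dim probes such as most members in spleen. Its overall dye shift was the same at every brightness, so it does not cover a shift that varies with brightness either. The 0 unchanged probes called therefore give no rate of false calls for the real arrays. Members and lists were chosen with earlier results of these data known. Named genes are those called, up to 2 per subfamily and organ with the largest mean ratio in 1 direction on both arrays, and members with a known role; partners and regulators are named when called or as lowest and highest of their list, and other list genes named were chosen after their values were seen. List genes with an array left out (Pgrmc1 and Nr3c1 in spleen, for example) were counted as not measurable. Alternatives were an offset of 10, Feature Extraction's log ratios, median centring, other filters on dim probes, the brightest probe per gene, single arrays, the series table and other scalings between arrays.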

Additional observations from a re-analysis of the deposited data

Results flagged for a closer look

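2 member probes had diet ratios of opposite direction in the 2 organs, below 0 on both arrays of one and above 0 on both arrays of the other. Cyp2d22 A_52_P478420 stood at -0.14 and -0.35 in liver and at 0.16 and 0.005 in spleen, a difference of liver minus spleen of -0.33, while its other probes in liver changed sign with the dye. Cyp2j9 A_51_P330044 stood at 0.45 and 0.09 in liver and at -0.05 and -0.02 in spleen, a difference of 0.31. The difference between organs was not tested in either case, no value passed the 1.5-fold bound, and 28 member probes could be compared in this way. Of all measurable probes, 33.9% kept 1 direction on both liver arrays and 40.3% on both spleen arrays. The share of all probes with opposite directions in the 2 organs was not counted, so the 2 of 28 are not shown to be particular to the members.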

How the results depend on the processing

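No paired analysis was possible because the 2 arrays of an organ were taken as 1 pool per diet, which the labels leave unsettled, and no test was run, and a slide block was not possible because all 4 arrays lay on 1 slide. In liver the count of members lower, 0, was 3 with Feature Extraction's log ratios and 3 with the authors' series table (Cyp2b13, Cyp2b10 and Cyp2d22, 1 probe each), and the count higher stayed at 0 under both. The liver median of 0.0015 was 0.31 with median centring, which moved the median of all probes to 0.14, a difference of 0.17. On single liver arrays the counts were 0 to 3 higher (3 without replicate 2) and 0 to 1 lower (1 without replicate 1). In spleen the count higher, 1, was 3 with an offset of 10, 6 with Feature Extraction's log ratios, 6 with the series table, 0 with median centring and 0 where both diets were well above background. On single spleen arrays it was 1 to 2, and 2 without replicate 2. The spleen median of 0.05 was 0.10 with an offset of 10, 0.14 with Feature Extraction's log ratios and 0.15 with the series table, and 0.0352 to 0.0989 on single arrays, the higher without replicate 2. The organ median of 5.55 was 5.31 without scaling between arrays, 8.73 with processed signals and 6.55 with an offset of 10. The count brighter in spleen, 1, was 2 with processed signals and 2 with an offset of 10, and 1 to 2 with 1 array per organ (2 without replicate 1). A smaller offset widens ratios of dim probes by its construction; the cause of the other moves was not tested. Of the values of these counts and medians under alternatives 51 stayed within 1.5 times or the spread of the arrays and 21 moved, and of those of single probes 383 stayed and 127 moved, 0 of either kind turning a called direction. Dim signal limits the Cyp2b values in liver and nearly all members in spleen.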

Other observations

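Outside families 1 to 3, Cyp20a1, an orphan P450, was lower in nucleoprotein spleens, at -0.99 and -0.90, and changed sign with the dye in liver, at 0.53 and -0.57. It was the single one called of 19 such genes measurable in spleen. Beside Dbp, the related clock output factors Tef (-0.35 and -0.55) and Hlf (-0.18 and -0.34) lay below 0 on both liver arrays without passing the bound, as did Onecut1 (-0.33 and -0.50), a liver transcription factor. All 9 measurable periportal genes of liver had mean ratios below 0, where 57.3% of all measurable liver probes were above 0. Their median was -0.15, the lowest was -0.34 for Arg1, the urea cycle arginase, and 0 were called. The arrays did not agree on all of them. Cps1 (0.62 and -1.18), Ass1 (0.45 and -0.82), Hal, Sds and Cdh1 changed sign between the arrays. Of 6 pericentral genes, which mark the zone where Cyp1a2 and Cyp2e1 are made, 1 was above 0, with a median of -0.04. In spleen Rgn, a pericentral liver gene, was higher at 0.65 and 0.64. It was well above background in control on 1 of 2 arrays, so it was measurable through nucleoprotein only. These genes were named after their values were seen.

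By accession, 3 probes with other names in the files belong to the same families in RefSeq, namely Cyp2d34, Cyp2d12 and Cyp2ab1. The probes of Cyp2d34 and Cyp2d12 were measurable in liver and that of Cyp2d12 in spleen, and 0 were called. Cyp2d12 stood at 0.14 ± 0.003 in spleen and was brighter in liver by 7.05 log2 units, and on 1 liver array its spot was left out as an outlier.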
